A study of Homo sapiens with 15 samples.

Results

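The IDH1R132H line and the IDH2R140W line of TF-1 were compared through their poly(A) RNA. TF-1 is an established human erythroleukaemia line whose growth depends on cytokines such as GM-CSF. The comparison took the 3 libraries labelled IDH1R132H and the 3 labelled IDH2R140W out of 15 in the series. Base editing, which changes single bases of the genome without cutting both strands, had been used to make the amino acid substitution in each line's name, an arginine of IDH1 to histidine in one line and an arginine of IDH2 to tryptophan in the other. Cells of both lines grew in RPMI-1640 with serum and antibiotics and without GM-CSF, so the medium was the same on both sides of the contrast. Other groups, 3 libraries each, serve here as reference levels. They were Parental TF-1, which grew with 2 ng/ml GM-CSF, and 2 further edited lines without it, IDH2R140Q and IDH2R172K. Whether an edited line is a single clone or a pool is not given in the sources used here. Nothing in the labels tells whether the 3 libraries of a group were grown apart, and the p-values below therefore reflect library-to-library spread that may be technical.

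IDH1, in the cytosol, and IDH2, in mitochondria, normally convert isocitrate to 2-oxoglutarate and make NADPH. Mutant forms at these residues instead reduce 2-oxoglutarate to 2-hydroxyglutarate, which can inhibit dioxygenases that use 2-oxoglutarate, among them the TET enzymes that oxidise DNA methylation and the JmjC histone demethylases. IDH mutations occur in acute myeloid leukaemia and gliomas, and in leukaemia they are linked to a block of differentiation. TF-1 cells carry features of an early progenitor that can move toward red cell, megakaryocyte, granulocyte or macrophage programmes. The contrast asks where the transcriptomes of a cytosolic and a mitochondrial IDH mutant line differ in one parental background.

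Expression was read in TPM, a transcript abundance scaled for transcript length and to a fixed library total, and differences were taken on the log2(TPM + 1) scale as IDH1R132H minus IDH2R140W (genes at low TPM therefore show too small a change). Of 56624 symbols, 14881 reached 1 TPM in at least 3 of the 15 libraries and were tested. Values are given per library in the order 1, 2, 3, first for IDH1R132H and then for IDH2R140W unless stated otherwise, and a bracket after them holds the log2 difference (± SE where given) and the limma adjusted p. A gene was called at a limma adjusted p (Benjamini-Hochberg) under 0.05 with at least a 2-fold difference. By this rule 1170 genes were called (7.86% of those tested), 815 higher in IDH1R132H (5.48%) and 355 higher in IDH2R140W (2.39%). Upward calls in IDH1R132H were thus 69.7% of all calls. The median gene stood 0.12 higher in IDH1R132H, and medians of gene lists are given below minus this shift. After median-ratio scaling the split was 648 to 481 (57.4%), after quantile normalisation 616 to 522 (54.1%), and with TPM rescaled without globin, ribosomal protein and mitochondrially encoded genes 748 to 484 (60.7%).

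Read numbers cannot be recovered from TPM, the depth is unknown, and no interval for counting error is given. In IDH1R132H libraries 13378 to 13534 symbols reached 1 TPM, and in IDH2R140W libraries 12946 to 13223. Pearson's r across genes, which are not independent, was 0.985 to 0.990 within IDH1R132H, 0.978 to 0.986 within IDH2R140W and 0.946 to 0.958 between the lines. Ribosomal protein genes held 15.32%, 14.98% and 15.05% of the TPM in IDH1R132H and 18.2%, 18.4% and 21.9% in IDH2R140W, where library 3 stood apart, and mitochondrially encoded genes 3.05% to 3.40% against 3.98% to 4.36%. Each difference had an exact two-sided permutation p = 0.1, the smallest that 3 against 3 libraries allow. The groups did not overlap in 1161 of the 1170 called genes, beside 49.3% of all genes tested. The calls were picked from these same libraries, so the lack of overlap among them follows largely from the rule and is no separate evidence. CD34 and CD33, surface proteins of myeloid progenitors, were abundant in both lines (512 and 248 TPM in IDH1R132H, 276 and 208 in IDH2R140W) and were not called. The other 2 tested markers of such progenitors, KIT (5.74 and 14.05 TPM) and CSF2RB (54.3 and 167), were called higher in IDH2R140W, and none of 6 fibroblast markers reached the level for testing. The GM-CSF receptor alpha chain CSF2RA and the red cell factor GATA1, each on 2 rows, are listed at 0 in all 15 libraries. Of the 2985 symbols on more than 1 row 81.8% were so listed, beside 39.4% of symbols on 1 row, so these zeros do not show absence.

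**Figure D1:**
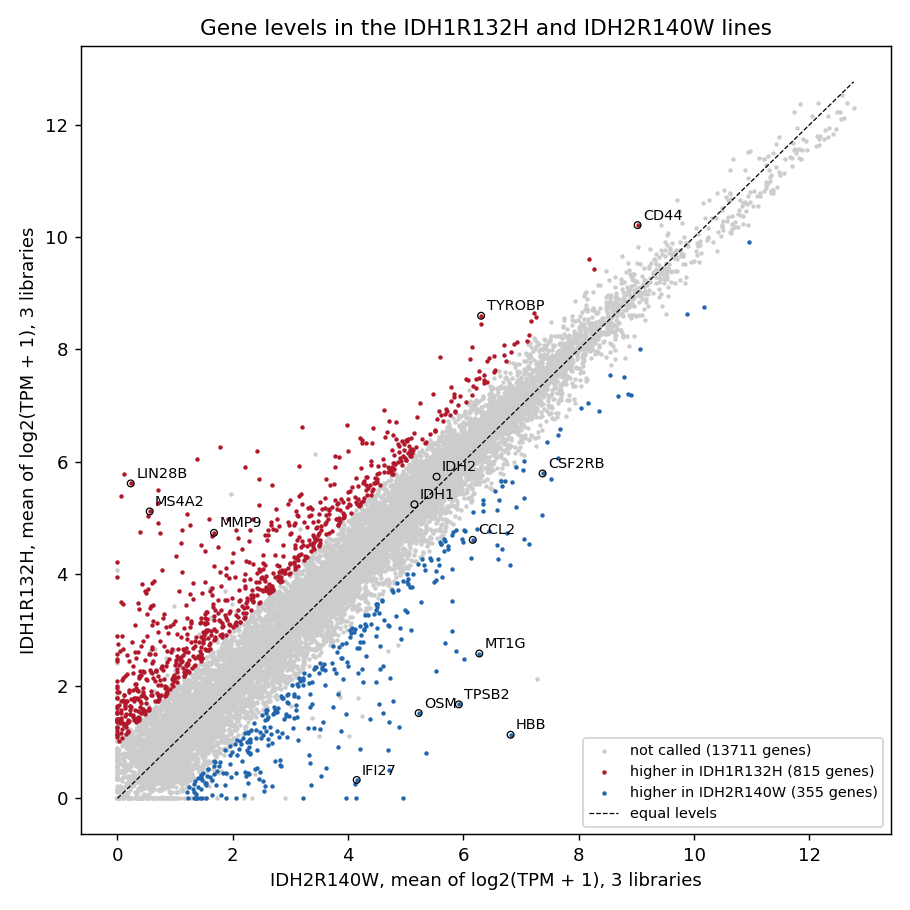
Mean log2(TPM + 1) of each of the 14881 genes tested in IDH2R140W (horizontal axis) and IDH1R132H (vertical axis), 3 libraries each, with called genes in colour and the dashed line at equal levels. The 815 genes higher in IDH1R132H lie above the line and the 355 higher in IDH2R140W below it, with HBB farthest below and LIN28B, at near 0 in IDH2R140W, far above.

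Neither edited gene was called. IDH1 (ENSG00000138413, chromosome 2, 208236227 to 208266074, minus strand, hg38) stood at 38.3, 37.9 and 34.3 TPM in IDH1R132H and 36.5, 36.4 and 30.9 in IDH2R140W, with a log2 difference of 0.09 ± 0.09 (SE, limma adjusted p = 0.495). IDH2 (ENSG00000182054, chromosome 15, 90083045 to 90102504, minus strand) stood at 51.8, 56.7 and 48.3 in IDH1R132H and 46.8, 47.9 and 41.7 in IDH2R140W (0.20 ± 0.08, adjusted p = 0.0734). The groups overlapped for IDH1 and not for IDH2. Across the 3 scalings named above the IDH1 difference lay below 0. Because TPM pools both alleles of a gene, these data hold no check of the edits. Among 7 tested IDH enzymes and 2-hydroxyglutarate dehydrogenases, which clear the metabolite, none was called, and D2HGDH, which oxidises D-2-hydroxyglutarate, stood at 7.29 ± 1.43 TPM (SD, n = 3) in IDH1R132H and 8.66 ± 2.19 in IDH2R140W.

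To see in which line a called gene stood apart, each line was set against the other 12 libraries. In 491 of the 1170 called genes (41.97%) all 3 IDH1R132H libraries lay outside the range of the 12 others, in 152 (12.99%) all 3 IDH2R140W libraries did, in 87 (7.44%) both lines did, and in 440 (37.6%) neither. Over all genes tested the shares were 12.9%, 4.26%, 0.880% and 81.9%. The lines share the reference libraries, so these counts are a description.

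Genes of a fetal RNA-binding programme held the largest protein-coding difference toward IDH1R132H. LIN28B, which blocks the maturation of let-7 microRNAs and marks fetal blood progenitors (ENSG00000187772, chromosome 6, 104936616 to 105083332), stood at 44.1, 50.7 and 49.2 TPM in IDH1R132H and 0.19, 0.15 and 0.18 in IDH2R140W. The difference was 5.38 ± 0.13 (adjusted p = 7.17e-12), and both lines lay outside the range of the other 9 libraries, since Parental averaged 10.9, IDH2R140Q 3.19 and IDH2R172K 9.17. IGF2BP1, an mRNA-binding protein of fetal tissues whose transcript let-7 targets, stood at 39.7, 36.8 and 35.5 against 1.05, 0.64 and 0.3 (4.55, 2.71e-08). Its IDH2R140W libraries lay below the 12 others, where Parental averaged 28.4 and IDH2R172K 41.8. IGF2BP2, a close relative, stood at 31.96, 34.04 and 29.6 against 0.43, 0.87 and 0.11 (4.51, 4.91e-09), with Parental at 5.49, and again both lines lay outside the other 9 libraries. The family's remaining member IGF2BP3 differed less, at 31.4 ± 4.14 against 16.2 ± 3.10, and was not called (0.93, 0.0021). It was looked up after the values of the other 2 were seen, as was BCL11A, the repressor of fetal globin, which was not called (8.08 against 4.66 TPM).

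**Figure D2:**
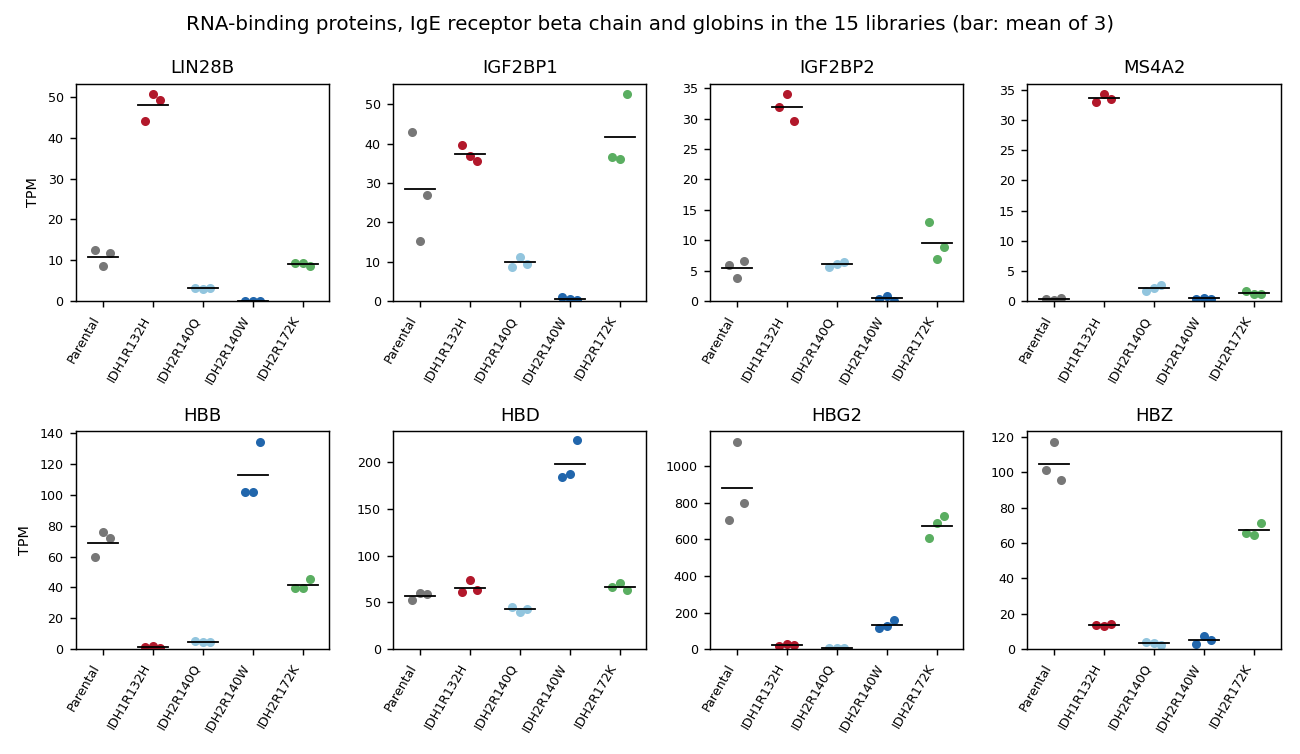
TPM of 8 genes in each of the 15 libraries (points, vertical axis from 0) by group, with bars at the mean of 3. LIN28B, IGF2BP2 and MS4A2 were highest in IDH1R132H, with no library of theirs below 29.6 TPM, whereas HBB and HBD were highest in IDH2R140W.

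The beta-like globins went the other way. All 6 tested members of that gene cluster on chromosome 11 were called higher in IDH2R140W, where 2.39% of all genes were, and their median was −2.57 once the shift of all genes was taken off. HBB, the adult beta chain, stood at 1.3, 2.19 and 0.44 TPM in IDH1R132H and 102, 102 and 134 in IDH2R140W, a difference of −5.68 ± 0.22 (adjusted p = 3.26e-10). Both lines lay outside the other 9 libraries, with Parental at 68.99 and IDH2R172K at 41.6. HBD, the minor adult delta chain, stood at 61.1, 73.6 and 62.8 against 184, 187 and 224 (−1.58, 2.49e-08), and only IDH2R140W lay outside the other 12 libraries. The fetal gamma chain HBG2 stood at 18.4, 29.9 and 23.7 against 113, 127 and 158 (−2.43, 3.72e-07), and both lines were far below Parental at 880.4 and IDH2R172K at 676. HBG1 is a near-identical copy of HBG2, so reads may be split between them. The embryonic epsilon chain HBE1 reached 5.41 TPM in IDH2R140W and 0.177 in IDH1R132H, and the pseudogene HBBP1 54.5 and 7.11.

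Alpha-like globins were mixed. Among 4 tested members, 2 were called higher in IDH2R140W (2.39% over all genes) and 1 higher in IDH1R132H (5.48% over all genes). The remaining 1 did not pass and had a negative difference. The adult chains HBA1 and HBA2, also near-identical copies, were lower in IDH1R132H, at 123, 119.5 and 115 and 52.5, 58.4 and 41.8 TPM against 301, 306 and 376 and 164, 169 and 220.4 (−1.44 and −1.84). The embryonic zeta chain HBZ was higher there, at 13.8, 12.9 and 14.2 against 3.01, 7.21 and 5.24 (1.31, adjusted p = 0.000195). HBZ fell short of 2-fold with a pseudocount of 5 (0.89), and both lines were far below Parental at 105. All globins together held 0.0284% to 0.0324% of the TPM in IDH1R132H and 0.0975% to 0.123% in IDH2R140W.

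The wider red cell programme was mixed. Of 14 genes of haem synthesis 1 was called, ALAS2, the erythroid enzyme of the first step, at 1.27, 2.79 and 3.06 TPM in IDH1R132H and 8.57, 6.66 and 5.22 in IDH2R140W (−1.24, adjusted p = 0.000576), a call that fell under 2-fold without IDH1R132H library 1 (−0.97). None of 11 erythroid transcription factors was called, and KLF1, an activator of adult beta globin, stood at 70.02 ± 2.78 against 108 ± 4.62. After median-ratio scaling or quantile normalisation 1 factor of the 11 passed. Among 27 membrane and iron genes 6 were called higher in IDH2R140W (2.39% over all genes) and 2 higher in IDH1R132H (5.48% over all genes), and the list's median was 0.05 above that of all genes, on the side opposite to its calls. The 6 were carbonic anhydrase CA1, the membrane skeleton genes ANK1 and EPB42, the Rh antigen genes RHCE and RHD, and the transferrin receptor TFR2. CA1 stood at 9.86, 11.1 and 10.4 against 55.01, 58.7 and 50.99 (−2.29, 1.5e-09), and the groups were wide apart. GYPB and GYPE, glycophorins with near-identical sequence, were higher in IDH1R132H at 28.3 and 35.3 TPM against 7.03 and 8.98. The erythropoietin receptor EPOR stood at 45.1, 47.1 and 42.9 against 21.7, 24.4 and 21.2 and was just under 2-fold (0.98, 1.7e-06).

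Platelet genes were higher in IDH1R132H. Of 19 tested megakaryocyte and platelet genes 12 were called higher there and none in IDH2R140W, with a median of 1.152 above all genes (share called higher over all genes 5.48%). RAB27B, a GTPase of platelet granule release, stood at 30.8, 29.2 and 31.2 TPM against 1.18, 2.72 and 2.32 (3.39 ± 0.21, adjusted p = 2.42e-08). SELP, the adhesion molecule P-selectin, stood at 26.8, 22.8 and 22.4 against 4.07, 2.53 and 3.3 (2.55, 2.74e-08), and LTBP1, which binds latent TGF-beta, at 16.8, 18.97 and 16.6 against 3.67, 3.17 and 2.18 (2.22, 4.33e-08). For each of these 3 the groups were separated by a factor of 4 or more between nearest libraries. MMRN1, a platelet protein that binds factor V, stood at 30.3, 32.7 and 33.6 against 9.73, 10.6 and 7.67 (1.69, 1.97e-07). The chemokine PPBP, thrombospondin THBS1, the von Willebrand receptor subunits GP9 and GP1BB, coagulation factor F13A1, CLEC1B and ANGPT1 were also among the 12. Several defining genes of the lineage did not pass. ITGA2B, the integrin alpha chain of the fibrinogen receptor, stood at 323 ± 11.6 against 425 ± 6.39 and was not called, nor was ITGB3, its partner (25.6 and 26.5). FLI1, a transcription factor of the lineage, was at 134 against 76.6 and did not pass.

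Mast cell and basophil genes were higher in IDH2R140W, with 1 marked exception. Among 22 tested genes 11 were called higher there (2.39% over all genes) and 2 higher in IDH1R132H (5.48% over all genes). The list's median was −0.997 relative to all genes. TPSB2, a mast cell tryptase, stood at 1.71, 1.79 and 3.31 TPM in IDH1R132H and 53, 55.3 and 72.1 in IDH2R140W (−4.25 ± 0.18, adjusted p = 9.22e-10). Its relatives TPSAB1, TPSD1 and TPSG1 were also called, at 0.853, 1.5 and 0.0567 TPM in IDH1R132H against 17.5, 28.7 and 1.58, but the tryptases are near copies and reads may be split among them. In all 4 the IDH2R140W libraries lay above the 12 others. ENPP3, the basophil marker CD203c, stood at 1.74, 0.74 and 0.28 against 32.7, 24.1 and 19.4 (−3.82, 7.76e-08), and the IL-33 receptor IL1RL1 at 0.72, 0.99 and 0.96 against 14.9, 16.7 and 9.21 (−2.91, 6.67e-07). The remaining 5 were CLC, the histamine-making enzyme HDC, the IL-5 receptor IL5RA, the leukotriene enzyme LTC4S and the amine transporter SLC18A2. With a pseudocount of 5, which weighs low genes less, 6 of the 11 passed.

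MS4A2, which encodes the IgE receptor's beta subunit, went against that list. It stood at 33, 34.3 and 33.5 TPM in IDH1R132H and 0.41, 0.62 and 0.4 in IDH2R140W (4.55 ± 0.16, adjusted p = 1.32e-10), while the receptor's alpha chain FCER1A (298 ± 14.3 against 319 ± 13.7) and its gamma chain FCER1G (82.9 against 70.99) were not called. No other group exceeded 2.22 TPM of MS4A2 on average. Other genes of the MS4A cluster on chromosome 11 were also higher in IDH1R132H. MS4A4A stood at 77.1, 77.96 and 72.2 against 1.4, 3.95 and 2.38 (4.49, 1.55e-09), MS4A3 at 181, 199 and 208 against 73.1, 73.6 and 81.2 (1.36, 1.44e-08), and MS4A6A, looked up after these values were seen, at 207, 242 and 232 against 61.5, 75.5 and 69.5 (1.71, 2.8e-09). For these 3 it was IDH2R140W that lay below all 12 other libraries. SIGLEC8, an inhibitory lectin of eosinophils and mast cells, was the list's other gene called higher in IDH1R132H (5.35 against 0.937 TPM).

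Of 10 tested granule genes and transcription factors of neutrophil precursors, 6 were called higher in IDH2R140W (2.39% over all genes). Only 1, MS4A3, was called higher in IDH1R132H (5.48% over all genes). The 3 that did not pass had a positive difference without overlap (49.3% of all genes tested did not overlap). Among them were the protease CTSG (32.5 against 23.97) and lysozyme LYZ (112 against 83.8). CST7, an inhibitor of granule cathepsins, stood at 1.68, 1.89 and 1.43 TPM against 19.2, 18.7 and 21.8 (−2.97, adjusted p = 2e-08). CEBPA, the transcription factor that directs granulocyte fate, stood at 8.07, 10.01 and 9.17 against 36.1, 35.4 and 24.3 (−1.69, 1.25e-05), and GFI1, a repressor needed for neutrophils, at 8.69, 8.57 and 8.63 against 22.1, 19.7 and 16.5 (−1.08, 7.2e-05). Both were highest in IDH2R140W of the 5 groups. The proteoglycan SRGN, the protease PRSS57 and the protease inhibitor SERPINB1 completed the 6, SERPINB1 falling just under 2-fold without IDH2R140W library 1 (−0.996). Of the remaining 7 of 17 listed genes, ELANE, PRTN3 and AZU1 among them, none reached the level for testing.

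Monocyte genes were mixed, and shares over all genes were 5.48% called higher in IDH1R132H and 2.39% higher in IDH2R140W. TYROBP, the adaptor DAP12, stood at 410.3, 371 and 379 TPM in IDH1R132H and 76.1, 75.3 and 83.3 in IDH2R140W (2.29 ± 0.07, adjusted p = 4.52e-11), and CSF1R, the M-CSF receptor, at 7.06, 6.19 and 9.13 against 0.7, 0.85 and 1.08 (2.16, 1.03e-05). These and AIF1, which stands on 6 rows, were higher in IDH1R132H, CD4 was higher in IDH2R140W, and 9 of the 13 tested did not pass. Among 14 stem and progenitor genes MEIS1, a homeobox partner of HOX proteins, stood at 24.9, 30.96 and 24.1 against 2.66, 3.81 and 3.11 (2.72, 4e-07) and the receptor NPR3 at 46.3, 47.2 and 47.5 against 7.31, 6.83 and 3.09 (2.90, 5.38e-07), both highest in IDH1R132H of the 5 groups. KIT, the stem cell factor receptor, was higher in IDH2R140W (5.03, 6.07 and 6.13 against 15.98, 15.5 and 10.7). Of the HOX, MEIS and PBX genes 20 of 21 did not pass in either direction, and without IDH2R140W library 2 the count higher in IDH1R132H was 2. Without IDH2R140W library 3 the counts higher in IDH2R140W were 2 in the monocyte list and 2 in the stem and progenitor list.

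Markers of other lineages were read in the same way. Of 5 endothelial markers 3 were called higher in IDH1R132H (5.48% over all genes). The list summed to 213 to 235 TPM there and 48.6 to 102 in IDH2R140W. KDR, a VEGF receptor, stood at 59.5, 59.7 and 59.1 against 9.78, 8.68 and 5.58, the cadherin CDH5 at 11.8, 12.5 and 12.6 against 0.88, 0.33 and 0.19, and PECAM1, which platelets also carry, at 146, 127 and 149 against 71.6, 76.4 and 31.9. TEK, the angiopoietin receptor, overlapped between the lines at 14.2 and 14.5. It and CLDN5, the 2 endothelial markers not called, had a negative difference. The B cell list summed to 30.8 to 32.9 against 5.36 to 7.05 TPM, most of it CD22 (25.1, 24.4 and 24.2 against 2.59, 2.07 and 1.75), which was called with PAX5, while 2 members were listed at 0 in both lines. CD3D, a T cell receptor subunit, stood at 31.98 against 9.09 TPM and in Parental at 68.4. TRAC, the other T cell marker tested, had a negative difference and was not called. The remaining 4 of the 6 T cell markers were below the level for testing. What part such genes have in the lineage lists was not tested.

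**Figure D3:**
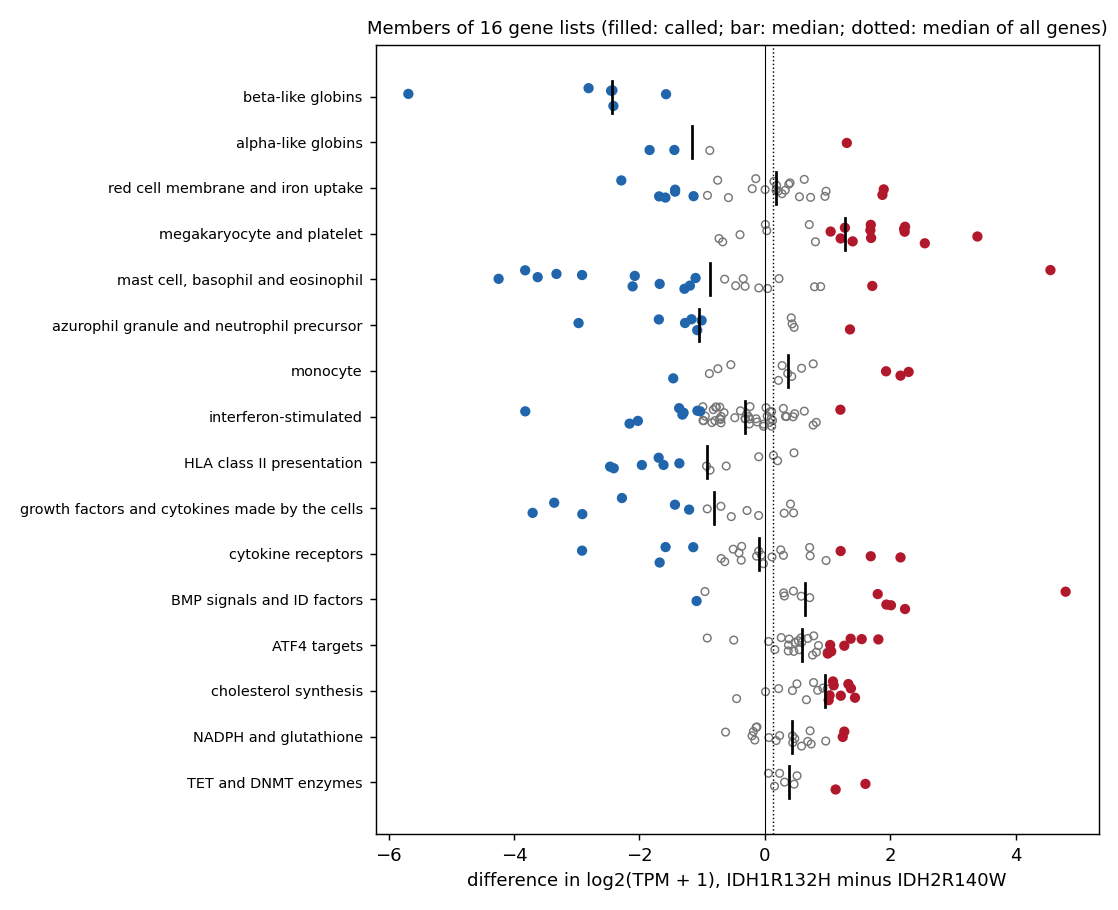
Difference in log2(TPM + 1), IDH1R132H minus IDH2R140W, of each tested member of 16 gene lists (points; filled where called, red higher in IDH1R132H and blue higher in IDH2R140W), with a bar at each list's median, a solid line at 0 and a dotted line at the median of all genes, 0.12. Beta-like globins, mast cell, granule, class II and cytokine genes lie mostly to the left, and platelet, BMP, ATF4 and cholesterol synthesis genes mostly to the right.

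Interferon-stimulated genes, which cells induce to restrict viruses, were higher in IDH2R140W in part of the list. The list's median was −0.43 less the shift of all genes. Of 53 tested members 8 were called higher there (2.39% over all genes) and 1 higher in IDH1R132H (5.48% over all genes). The count higher in IDH2R140W was 13 after quantile normalisation and also with a pseudocount of 0.1, and 5 with a pseudocount of 5. IFI27, a mitochondrial interferon-induced protein, stood at 0.32, 0.08 and 0.39 TPM in IDH1R132H and 15, 14.99 and 20.8 in IDH2R140W (−3.82 ± 0.23, adjusted p = 2.37e-08). OAS1, which makes the 2-5A signal on double-stranded RNA, stood at 1.7, 1.45 and 1.07 against 10.7, 10.8 and 7.75 (−2.16, 5.31e-07), and LGALS3BP, a secreted lectin ligand, at 26.1, 25.9 and 24.9 against 116, 116 and 92.1 (−2.02, 2.49e-08). The groups were apart in all 3, yet IFI27 was highest in IDH2R140W of all 5 groups, OAS1 was higher still in IDH2R140Q (19.6), and LGALS3BP was at 201 in Parental. IFI44 (23.6 against 62.4), IFI35, IFI44L, IFI6 and SAMD9L were the others, and the IFI6 call was lost without IDH2R140W library 3 (−0.99). The transcription factors STAT2 (19.1 against 20.9) and IRF7 (22.9 against 21.6) were not called. USP18, which damps interferon receptor signals, was higher in IDH1R132H (10.9, 11.7 and 11.5 against 5.56, 4.2 and 3.52, log2 difference 1.20).

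Promoters of the called interferon genes were read on both strands for a core of the interferon-stimulated response element, the letters GAAA, any 2 bases and GAAA again, in the 250 bases before each RefSeq start (GRCh38.p14). The motif was picked after the expression values were seen. It lay in 25 of the 41 tested members that had a promoter entry and in 5 of the 8 called members that had one, namely IFI27, IFI44, IFI44L, IFI6 and LGALS3BP. Among all 27305 genes with an entry 3.71% held it, and 3.38% of the 9281 tested. A pair of promoters is shown because these genes carried a difference and a match, written 5′ to 3′ on the gene's strand with matches in capitals. IFI27 (chr14:94110486-94110735, plus strand) held 2 matches, from 108 to 99 and from 95 to 86 bases before the start, and IFI44 (chr1:78649539-78649788, plus strand) held 1, from 18 to 9 bases before it.
IFI27: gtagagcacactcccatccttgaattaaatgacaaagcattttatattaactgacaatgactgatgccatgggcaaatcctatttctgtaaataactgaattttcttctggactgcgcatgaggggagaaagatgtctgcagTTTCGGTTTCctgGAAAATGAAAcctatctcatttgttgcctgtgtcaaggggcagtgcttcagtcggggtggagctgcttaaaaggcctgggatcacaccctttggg
IFI44: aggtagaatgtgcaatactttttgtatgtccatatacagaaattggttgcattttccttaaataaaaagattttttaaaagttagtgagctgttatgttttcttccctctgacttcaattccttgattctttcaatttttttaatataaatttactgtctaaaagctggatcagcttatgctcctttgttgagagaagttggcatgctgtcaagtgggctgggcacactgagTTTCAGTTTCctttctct
A match describes the letters and not binding, which was not measured.

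HLA genes were higher in IDH2R140W but are uncertain. Class I had 3 of 11 called, beside 2.39% of all genes called higher in IDH2R140W. HLA-B and HLA-C were among them, and each of the 3 stands on 6 to 8 rows that were summed. HLA-C stood at 16.8, 18.8 and 19.5 TPM in IDH1R132H against 99.4, 101 and 89.3 in IDH2R140W (−2.33, adjusted p = 2.81e-10), whereas beta-2 microglobulin B2M, on 1 row, was at 1077 ± 43.7 against 1609.7 ± 177 and did not reach 2-fold. Class II had 6 of 13 called, 2 of them on 1 row. CD74, the invariant chain of class II molecules, was one of these, at 39.2, 38.9 and 41.7 against 139.9, 133 and 121 (−1.69, 3.72e-09), and IDH1R132H lay below the 12 other libraries. CIITA, the class II transactivator, was not called (2.06 against 1.76).

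Cytokines were a group in which IDH2R140W was high. Of 14 tested growth factors and cytokines 6 were called higher there (2.39% over all genes) and none in IDH1R132H. The list's median was −0.93 relative to all genes. OSM, oncostatin M, stood at 1.83, 2.38 and 1.47 TPM against 34.6, 40.3 and 34.5 (−3.70 ± 0.17, adjusted p = 2.03e-09), LIF, leukaemia inhibitory factor, at 1.69, 1.73 and 1.28 against 29.2, 27.2 and 20.3 (−3.36, 5.25e-09), and CSF1, which is M-CSF, at 5.08, 6.57 and 5.99 against 56.99, 55.3 and 40.9 (−2.91, 1.29e-08). For OSM and CSF1 both lines lay outside the other 9 libraries, and for LIF the IDH2R140W libraries lay above the 12 others. CSF2, the gene of GM-CSF itself, stood at 1.23, 1.26 and 1.56 against 9.5, 10.1 and 11.7 (−2.28, 8.73e-09), and its IDH1R132H libraries lay below the 12 others, Parental averaging 4.997 and IDH2R172K 9.64. ANGPT2, a TIE2 ligand, and PDGFA were also higher in IDH2R140W. Cells of both lines grew without added GM-CSF.

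Receptors followed no single direction. Of 23 cytokine receptor genes 4 were called higher in IDH2R140W (2.39% over all genes) and 3 higher in IDH1R132H (5.48% over all genes). CSF2RB, the shared beta chain of the GM-CSF, IL-3 and IL-5 receptors, stood at 54.9, 55.8 and 52.2 TPM in IDH1R132H and 186, 186 and 129.7 in IDH2R140W (−1.58, adjusted p = 1.63e-06), with IDH2R140W library 3 the lowest of its group. IL5RA (2.33 against 9.35), IL1RL1 and KIT were on the same side, and CSF1R and IL10RA (21.7 against 8.93) were among the 3 on the other. Among 16 feedback genes and targets of STAT5, the factor downstream of these receptors, only OSM and LIF were called. CISH, a direct STAT5 target, stood at 44.05 ± 1.19 against 39.02 ± 1.64, SOCS2 at 24.2 against 45.7 and PIM1 at 148 against 196, and none of these passed. After median-ratio scaling, quantile normalisation or the rescaling 4 of the 16 were called higher in IDH2R140W, and without IDH2R140W library 1 or 2 there was 1 higher in IDH1R132H.

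Chemokines split within one gene cluster on chromosome 17. CCL7 was higher in IDH1R132H at 21.7, 24.7 and 22.6 TPM against 2.39, 3.61 and 6.4 (2.30, adjusted p = 1.31e-05), whereas its neighbour CCL2 was higher in IDH2R140W, at 23.04, 19.8 and 27.97 against 68.8, 68.7 and 74.5 (−1.56, 9.97e-06). Both attract monocytes, and both stood at low level in Parental (CCL7 is listed at 0 there, and CCL2 averaged 2.63 TPM). CCL3 was higher in IDH2R140W (0.25 against 1.78). Shares over all genes were 5.48% called higher in IDH1R132H and 2.39% higher in IDH2R140W. Of 20 NF-kB factors and targets 2 were called higher in IDH1R132H, TNFAIP3, a ubiquitin-editing inhibitor (13.7, 11.3 and 13.6 against 3.66, 5.5 and 2.26, log2 difference 1.58), and the apoptosis inhibitor BIRC3 (5.26 against 0.817), and 1 in IDH2R140W, IL1A.

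BMP pathway genes were higher in IDH1R132H, inhibitors as well as ligand. Of 12 tested 5 were called higher there (5.48% over all genes), and the list's median was 0.52 above all genes. In IDH2R140W 1 was called higher (2.39% over all genes), or 2 without IDH2R140W library 1. BMPER, a secreted BMP regulator (ENSG00000164619, chromosome 7, 33904308 to 34156356), stood at 46.03, 47.3 and 39.6 TPM against 0.95, 0.51 and 0.46 (4.80 ± 0.19, adjusted p = 4.79e-10), with Parental at 0.63 and IDH2R172K at 38.5. The ligand BMP6 stood at 39.9, 44.4 and 41.5 against 9.37, 8.79 and 6.47 (2.23, 2.11e-08). BAMBI, a decoy receptor, stood at 17.3, 18.3 and 17.9 against 3.74, 3.75 and 3.53 (2.01, 1.55e-07). SMAD6 and SMAD7, the inhibitory SMADs, stood at 32.2 and 9.11 against 7.81 and 1.89. The ID genes, which BMP signals induce in many cells, were mixed, with ID1 and ID2 lower in IDH1R132H and ID3 higher. ID2 was higher in IDH2R140W (27.9, 28.8 and 23.5 against 60.6, 55 and 57.6, log2 difference −1.09), and ID1 (112 against 218) and ID3 (27.1 against 16.2) were not called. Of 23 ERK feedback and early genes JUN (44.8, 48.6 and 45.2 against 19.6, 16.98 and 14.6, log2 difference 1.40) and ETV5 (50.7 against 22.05) were called higher in IDH1R132H and none in IDH2R140W, though 1 was without IDH2R140W library 3, while DUSP6 and SPRY2 did not pass (40.9 against 28.4 and 31.2 against 17.1).

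Part of the cholesterol synthesis pathway was higher in IDH1R132H. Of 18 tested enzymes 8 were called higher there, none in IDH2R140W and 10 did not pass (over all genes 5.48% were called higher in IDH1R132H), 17 had a positive difference, and the median was 0.84 above all genes. Of the early steps, ACAT2, which makes acetoacetyl-CoA, stood at 143, 145 and 145 TPM against 65.1, 69.6 and 75.6 (1.03), and HMGCS1, HMG-CoA synthase, at 177, 171.8 and 183 against 73.6, 67.2 and 55.1 (1.44). Without IDH2R140W library 1 ACAT2 fell just under 2-fold (0.98). The groups were apart in both of them. MVD, mevalonate diphosphate decarboxylase, had the smallest adjusted p, at 82.7, 79.97 and 84.9 against 31.04, 30.2 and 32.5 (1.37 ± 0.08, adjusted p = 1.04e-08). Later steps showed the same order. IDI1, the isopentenyl diphosphate isomerase, stood at 199 ± 19.8 against 92.3 ± 4.14, SQLE, squalene epoxidase, at 170.0 ± 3.81 against 83.5 ± 1.29, and DHCR7, a late reductase, at 178 ± 6.08 against 76.95 ± 12.4. IDH2R140W lay below the 12 other libraries for 7 of the 8, SQLE being the exception, where IDH2R172K was as low at 80.9. PMVK was the enzyme with a negative difference (29.9 against 41.3). After median-ratio scaling or quantile normalisation 4 members were called higher in IDH1R132H, and 5 after the rescaling.

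**Figure D4:**
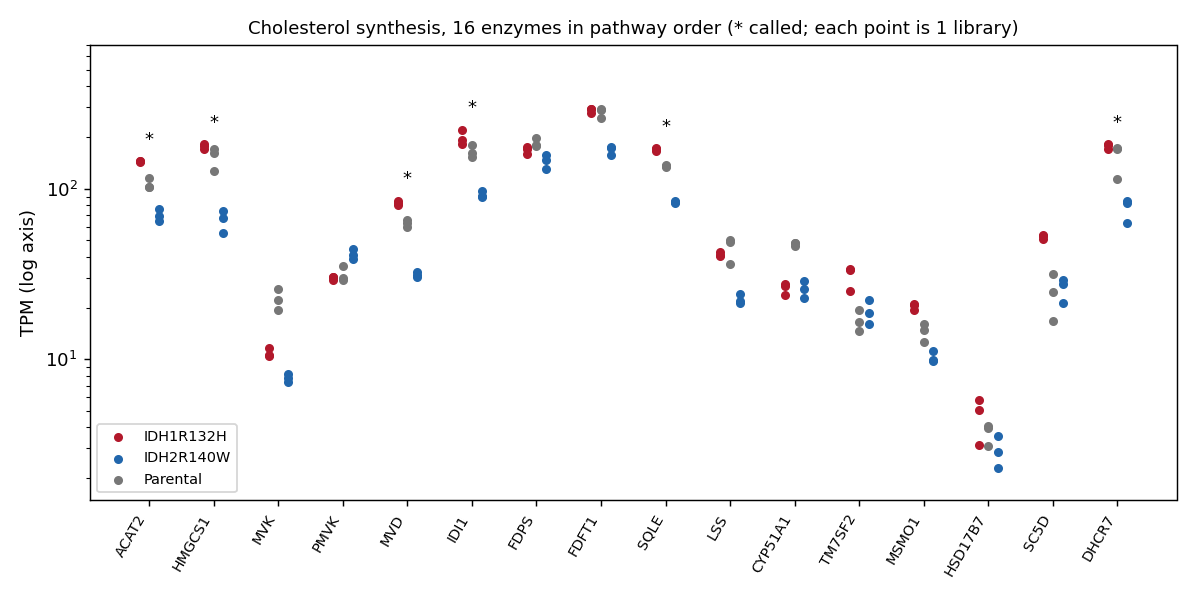
TPM on a log axis of 16 of the 18 cholesterol synthesis enzymes tested, in pathway order, in the 3 libraries of IDH1R132H (red), IDH2R140W (blue) and Parental (grey), each point 1 library, with an asterisk over each called gene. For all shown but PMVK the IDH1R132H mean lies above that of IDH2R140W, and the points of MVD, SQLE and IDI1 are widely apart.

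Genes beside the pathway held no call in that direction. Of 13 genes of sterol regulation and uptake none was called higher in IDH1R132H and 12 did not pass in either direction. SREBF2, the transcription factor that drives the pathway, stood at 93.98 ± 3.55 TPM against 56.9 ± 9.39 (0.73) and INSIG1, its feedback regulator, at 81.2, 79.8 and 73.7 against 44.97, 43.3 and 38.9 (0.87), both under 2-fold. None of 12 fatty acid synthesis genes was called, with FASN at 311 against 257. The letters TCACNCCAC, a form of the sterol response element, lay within 250 bases before the start of 0 of the 13 cholesterol enzymes with a promoter entry, beside 1.09% of all genes with one. At so low a share 13 genes would mostly hold no match, so the 0 tells nothing about them. Other forms of the element were not searched for.

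Some targets of ATF4, the factor of the amino acid and stress response, were also higher in IDH1R132H. Of 27 tested 7 were called higher there (5.48% over all genes), none in IDH2R140W and 20 did not pass. A positive difference was seen in 25, and the median was 0.46 above all genes. CHAC1, which degrades glutathione, stood at 19.7, 19.1 and 18.8 TPM against 5.27, 4.26 and 4.81 (1.81 ± 0.14, adjusted p = 2.01e-07). DDIT4, an inhibitor of mTORC1, stood at 158, 159 and 163 against 56.7, 54.2 and 52.02 (1.54, 1.04e-08), and the pseudokinase TRIB3 at 88.3, 96.9 and 86.6 against 36.5, 33.4 and 33.6 (1.37, 1.88e-08). In all 3 the IDH1R132H libraries lay above the 12 others. SLC7A11, the cystine importer, stood at 6.89 against 2.31, and the transcription factors ATF3, CEBPB and CEBPG at 13.8, 43.7 and 79.95 against 6.12, 20.5 and 39.4. CEBPG, at 2-fold, fell under it without IDH1R132H library 2 (0.96) or IDH2R140W library 3 (0.97). ATF4 itself was not called (459.7 ± 4.20 against 354 ± 16.7), nor was ASNS, asparagine synthetase (32.4 against 30.99). None of 19 aminoacyl-tRNA synthetases, a further set of ATF4 targets, was called. With median-ratio scaling, quantile normalisation, the rescaling or library weights 4 of the list's members passed in this direction, and 3 with a pseudocount of 5, with 1 member higher in IDH2R140W under each of the 3 scalings.

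Promoters of these targets were read for TGATGNAA, a C/EBP-ATF response element, also picked after the values were seen. It lay in 4 of the 24 tested targets with an entry (16.7%), ASNS, ATF3, CEBPG and CHAC1, of which the last 3 were among the 6 called ones with an entry, and in 2.35% of all tested genes with one. CHAC1 (chr15:40953221-40953470, plus strand) held it from 209 to 202 bases before the start and CEBPG (chr19:33373863-33374112, plus strand) from 42 to 35, and these 2 of the 3 called targets with a match are printed as examples, one with a distant and one with a near match, 5′ to 3′ with the match in capitals.
CHAC1: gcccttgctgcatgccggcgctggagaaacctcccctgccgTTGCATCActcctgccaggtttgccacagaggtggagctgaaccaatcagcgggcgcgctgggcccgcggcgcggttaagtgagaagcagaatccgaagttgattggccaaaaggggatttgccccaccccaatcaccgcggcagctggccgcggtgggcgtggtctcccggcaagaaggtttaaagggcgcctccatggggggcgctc
CEBPG: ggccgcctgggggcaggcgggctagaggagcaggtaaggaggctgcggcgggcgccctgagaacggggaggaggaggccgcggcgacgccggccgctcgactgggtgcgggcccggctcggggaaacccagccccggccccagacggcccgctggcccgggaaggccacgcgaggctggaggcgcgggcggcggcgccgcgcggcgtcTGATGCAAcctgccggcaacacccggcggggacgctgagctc
ASNS, with the same letters, was not called, so not every target with a match was.

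Of the lists of metabolic enzymes near the mutant proteins, 3 held calls, beside 7.86% of all genes called in either direction. Of 25 TCA cycle and glutamate genes 1 was called, DLD, the dihydrolipoamide dehydrogenase subunit shared by the pyruvate and 2-oxoglutarate dehydrogenase complexes, at 59.9, 64.8 and 66.5 TPM in IDH1R132H and 133, 138 and 123 in IDH2R140W (−1.03, adjusted p = 7.48e-08), which fell just under 2-fold without IDH1R132H library 1 (−0.988) or IDH2R140W library 2 (−0.997). Without IDH1R132H library 2, and also after each of the 3 scalings or with library weights, 2 genes of the list were called. The DLD values of the IDH1R132H libraries lay below the 12 others. Of 19 NADPH and glutathione genes SRXN1, sulfiredoxin (139, 149.9 and 141 against 62.3, 61.6 and 56.6, log2 difference 1.24), and SLC7A11 were called higher in IDH1R132H, while TXNRD1 (217 against 113) and NQO1 (35.6 against 31.4) did not pass. No gene of branched-chain amino acid breakdown was called among 11, where BCAT1 stood at 60.8 against 38.4. Of 24 glycolysis and hypoxia genes PFKFB3, which makes the activator of phosphofructokinase (60.8, 58.01 and 59.5 against 22.7, 26.6 and 17.4, log2 difference 1.40), and the prolyl hydroxylase EGLN3 were called higher in IDH1R132H. Without IDH2R140W library 2 the count was 4, and with a pseudocount of 5 it was 1.

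Some enzymes that depend on 2-oxoglutarate, or act on the same DNA mark, were among the calls. Over all genes 5.48% were called higher in IDH1R132H. Of 8 TET and DNMT genes 2 were called higher in IDH1R132H, DNMT3B, a de novo DNA methyltransferase (62.8, 64.4 and 62.7 TPM against 23.8, 23.9 and 14.4, log2 difference 1.60, adjusted p = 1.69e-05), and TET3 (14.9, 13.6 and 14.2 against 8.77, 6.64 and 3.49, log2 difference 1.13, adjusted p = 0.00634). For DNMT3B Parental stood at 64.2, and IDH2R140W was below all 12 other libraries. TET2 was not called at 4.54 ± 0.124 and 4.53 ± 1.73. Of 23 JmjC and other dioxygenases KDM6B, an H3K27 demethylase (25.1, 20.8 and 23.9 against 11.1, 11.2 and 5.69, log2 difference 1.28), and EGLN3 were called higher in IDH1R132H. IDH2R140W library 3 was low in TET3 and KDM6B, and without it both fell under 2-fold (0.81 and 0.997). These are levels of transcripts, and neither methylation nor 2-hydroxyglutarate was measured in the data used here.

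Matrix and surface genes were called higher in IDH1R132H for 6 of 31 tested members (5.48% over all genes). In IDH2R140W 2 were higher (2.39% over all genes). MMP9, a gelatinase, stood at 25.4, 27.3 and 24.1 TPM against 2.14, 2.41 and 2.04 (3.06 ± 0.11, adjusted p = 1.56e-10), and Parental at 0.357. N-cadherin, CDH2, stood at 28.9, 22.2 and 24.4 against 4.57, 7.58 and 3.33 (2.14, 8.05e-06) and CD44, the hyaluronan receptor, at 1217, 1155 and 1189 against 611, 560.1 and 407 (1.19, 1.67e-05). The IDH1R132H libraries lay above the 12 others for MMP9 and CD44, and CD44 was lowest in Parental (195). MMP2, ITGA6 and PECAM1 completed the 6, and osteopontin SPP1 (10.3, 15.5 and 12.7 against 35.4, 35.4 and 29.7) and SRGN were the 2 of the opposite direction. PECAM1 fell under 2-fold without IDH2R140W library 3 (0.91).

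Smaller sets gave single genes. Their counts stand beside shares over all genes of 5.48% called higher in IDH1R132H and 2.39% higher in IDH2R140W. MT1G, a zinc-binding metallothionein, stood at 5.74, 4.31 and 4.99 TPM in IDH1R132H and 74.6, 75.2 and 79.7 in IDH2R140W (−3.69, adjusted p = 5.67e-09), while the 5 others tested in its list did not pass and IDH2R140W alone exceeded 7.20 on average. The list's count rose from 1 to 2 without IDH1R132H library 2 or 3 or IDH2R140W library 2, and after each of the 3 scalings. Of 15 BCL2 family genes the killer protein BIK was higher in IDH2R140W (5.44 against 17.2) and BBC3, or PUMA, higher in IDH1R132H (26.2 against 12.3), the latter just under 2-fold without IDH1R132H library 1 or 2 or IDH2R140W library 1 (0.983 to 0.999). Of 31 mitosis genes UBE2C, a ubiquitin-conjugating enzyme of mitotic exit (679.6, 678 and 702 against 291, 292 and 341), and the kinase AURKA (169, 186 and 171 against 87.95, 87.5 and 68.5) were called higher in IDH1R132H, and the proliferation marker MKI67 was not (62.7 against 51.7). No gene was called among the 13 mitochondrially encoded ones, all with a negative difference. None was called among the 6 plasminogen activators and inhibitors tested, but 1 was higher in IDH2R140W without IDH1R132H library 2 or IDH2R140W library 3, and 2 were after each of the 3 scalings or with a pseudocount of 0.1. Of 78 cytosolic ribosomal proteins 1 was called, RPS7 (971, 980.4 and 953 against 1869, 1838 and 2225), and 6 had a positive difference. Without IDH2R140W library 3 RPS7 (−0.94) and AURKA (0.99) fell under 2-fold.

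Further genes stood among the 12 largest differences of each direction. Higher in IDH1R132H were the noncoding RP5-921G16.1 (53.6, 55.3 and 53.6 TPM against 0.14, 0 and 0.1), the transcribed pseudogene TSSC2 (42.8, 38.01 and 42.4 against 0, 0 and 0.14), LINC01029 (60.9, 62.1 and 73.1 against 2.12, 0.56 and 2.56), 1 more noncoding gene and SEPP1, the selenium carrier selenoprotein P (32.8, 27.7 and 27.2 against 0.66, 0.54 and 0.66). AC000403.1 is listed at 0 in the 3 IDH2R140W libraries and at 14.95, 29.9 and 12.1 in IDH1R132H, a wide spread. Higher in IDH2R140W were ADCYAP1, the neuropeptide PACAP (0.49, 1.09 and 0.74 against 41.9, 42.8 and 34.7), RP11-750H9.5 (0.427 against 25.5) and ALB, serum albumin (0, 0.12 and 0.52 against 15.6, 13.8 and 20.4). APOC2, an activator of lipoprotein lipase, is at 0 throughout IDH1R132H and reached 23.3, 33.3 and 34.95 in IDH2R140W, so no fold is given. MIR1182 is also listed at 0 in IDH1R132H and at 35.1, 19.1 and 6.49 in IDH2R140W, where the libraries differed widely, and poly(A) libraries need not measure a short microRNA gene.

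Position along the chromosomes was read because isogenic lines can differ in gains and losses. Protein-coding genes of chromosome 20 stood 0.50 higher relative to those of all other chromosomes, with 59 of 324 called higher in IDH1R132H and 4 higher in IDH2R140W. Over all 11314 protein-coding genes tested, 666 were called higher in IDH1R132H and 276 higher in IDH2R140W. Every other chromosome read lay between −0.16 (chromosome 14) and 0.07 (chromosome 10). In windows of 25 neighbouring genes, whose medians ran from −0.11 at the 5th to 0.48 at the 95th percentile of 10740 windows, the extremes lay on chromosomes 7, 18, 14, 3 and 20. The lowest window, chr7:102464929-107629170 (LRWD1 to BCAP29), had a median of −0.78, and there IDH1R132H stood at −0.73 against Parental and IDH2R140W at 0.07. Against Parental, IDH2R140Q stood at 0.30 in it and IDH2R172K at 0.09. The highest, chr7:134646808-140404433 (BPGM to SLC37A3), had a median of 0.86, with IDH1R132H at 1.08 against Parental and IDH2R140W at 0.13. It was also above Parental in IDH2R140Q (0.60) and IDH2R172K (0.43), so the rise was not particular to IDH1R132H. On chromosome 20, a window of 0.83 (chr20:31944342-34540958) came with −0.61 in IDH2R140W and 0.17 in IDH1R132H. IDH2R140Q stood at 0.36 there and IDH2R172K at −0.002. A window of 0.84 (chr20:44910062-46129863, which holds MMP9 and UBE2C) came with 0.85 in IDH1R132H and 0.01 in IDH2R140W. In that window IDH2R140Q stood at 0.97, above IDH1R132H, and IDH2R172K at 0.54. A window of 0.83 on chromosome 3 (chr3:185476496-194633689), which holds IGF2BP2 and ETV5, came with −0.53 in IDH2R140W and 0.39 in IDH1R132H. IDH2R140Q stood at 0.08 and IDH2R172K at −0.29. DNA copy number was not measured in the data used here, and its part was not tested.

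**Figure D5:**
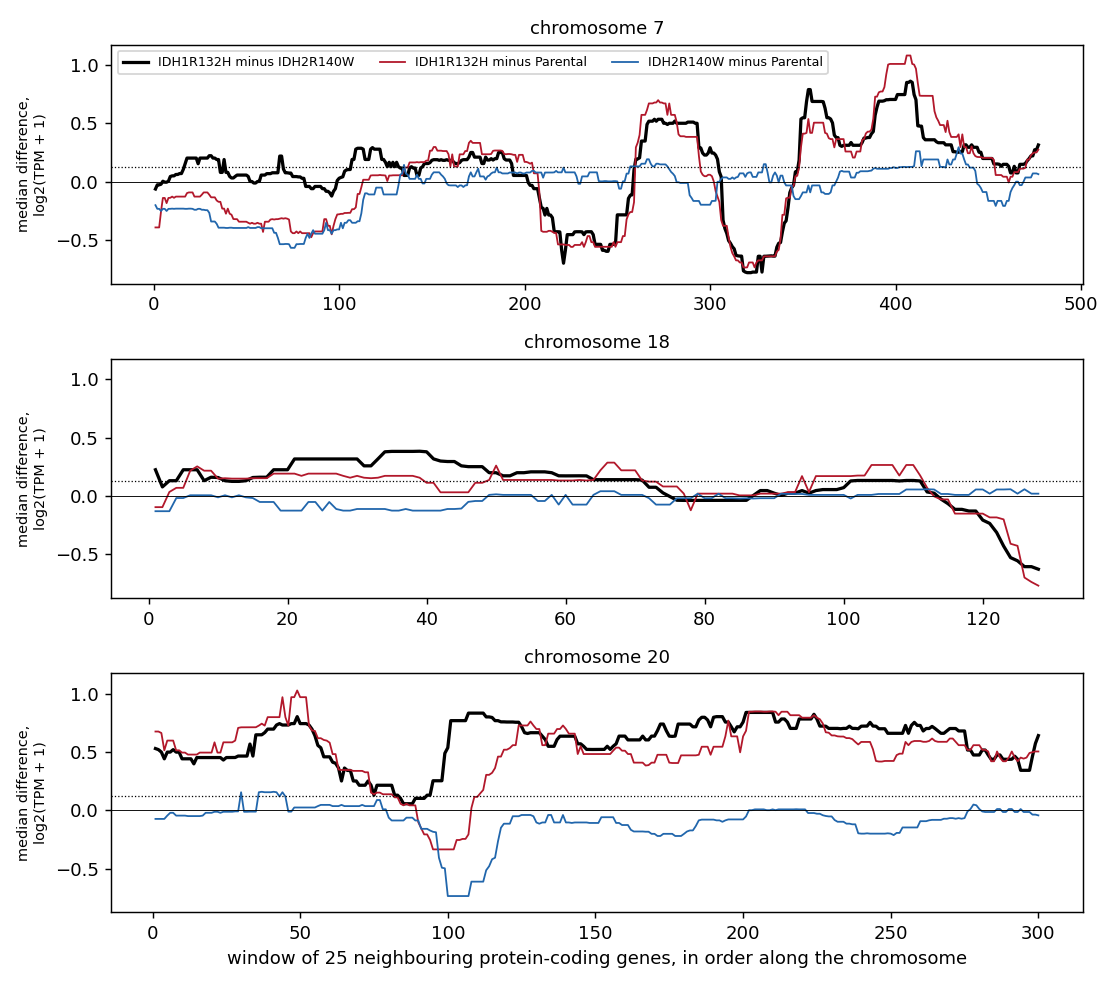
Median difference in log2(TPM + 1) over windows of 25 neighbouring protein-coding genes (horizontal axis, windows in order) on chromosomes 7, 18 and 20, for IDH1R132H minus IDH2R140W (black) and each line minus Parental (red IDH1R132H, blue IDH2R140W), with a dotted line at the median of all genes, 0.12. On chromosome 7 the black line follows the red one through its lowest (−0.78) and highest (0.86) windows, while both lines are below Parental over the first stretch and the black line there is near the dotted one, and on chromosome 20 it stays above the dotted line in nearly all windows.

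Genes named above were set against the 12 protein-coding neighbours on either side. For 14 of the 103 that could be placed the neighbours' median lay beyond 0.5 in the gene's own direction. The same count was not made over all genes, so no background share stands beside it. MS4A2 and MS4A3 lie in the MS4A cluster, so their neighbours include other genes of that cluster. For each of them 5 of 24 neighbours were called higher in IDH1R132H (5.48% over all genes). The 14 were DLD (neighbours −0.64) and RPS7 (−0.54), and with higher medians DNMT3B (0.82), UBE2C (0.80), IGF2BP2 and ETV5 (0.77 each), MMP9 (0.77), TRIB3 (0.64), SRXN1 (0.63), AURKA (0.62), PFKFB3 (0.56), TYROBP (0.54), and MS4A2 and MS4A3 (0.51 each). The differences of IGF2BP2, MMP9, MS4A2 and TYROBP were larger than those of their neighbours by more than 1 on the log2 scale.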

How the data were processed

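RNA-seq libraries of TF-1 cells were made from poly(A) RNA with a directional kit, per the labels' protocols. The authors deposited 1 TPM value per symbol and library, and their processing notes name STAR 2.7.3, HTSeq, RSEM, DESeq2 and hg38 without giving the role of each. TPM keeps no read number, so only the spread between the 3 libraries of a group sets the precision. Of 63568 rows, 6 with ambiguous date-like names were left out, and rows of 1 symbol were summed. Groups came from the labels. Differences were fitted with limma 3.58.1 (R 4.3.3) on log2(TPM + 1) over all 15 libraries with 1 mean per group and a variance trend, and adjusted by Benjamini-Hochberg over 14881 symbols. Symbols were placed on chromosomes for 12497 (84.0%). On simulated data for this comparison (14881 genes) the fit recovered 33 of 33 genes at a log2 change of 3, 33 of 33 at 2, 34 of 34 raised by 1.5 and 33 of 34 lowered by 1.5, with 7 false calls. The changed genes were drawn only from those at about 10 TPM or more and the noise was normal. Recovery at lower levels was not tried.

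Named genes were IDH1, IDH2, the 12 largest differences each way among called genes on 1 row whose groups did not overlap and whose higher mean reached 10 TPM, and up to 4 called members of each list with the smallest adjusted p. Further members are named beside their list's count, and a few members that are counted are not reported here by name. The comparison and the lists were chosen with earlier results of these data known, so counts over lists are descriptions with no test. Alternatives were other pseudocounts (0.1 and 5), other filters, 3 scalings, the 6 libraries alone, no trend, library weights, a replicate block, symbols on 1 row, and each library left out.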

Additional observations from a re-analysis of the deposited data

How the results depend on the processing

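The count of 815 genes higher in IDH1R132H and 355 higher in IDH2R140W was most sensitive to the pseudocount. With 0.1 in place of 1 the genes higher in IDH2R140W were 550 (and 1155 in IDH1R132H), and with 5 the counts were 331 and 134, 465 in all. The 3 scalings gave 648 and 481, 616 and 522, and 748 and 484, and turned the IDH1 difference to −0.0541, −0.0722 and −0.0067 (median-ratio, quantile and rescaled). Leaving out each library in turn gave 1114 to 1275 calls, 710 to 929 in IDH1R132H and 346 to 404 in IDH2R140W. Without IDH2R140W library 3 they were 710 and 404, and without that library and Parental library 2, a choice made after seeing the data, 726 and 408. Same-numbered libraries did not deviate together (r of −0.025 to −0.003), and a fit with the replicate number as a block gave 814 and 358. Of 112 named genes 85 kept call and direction under each of these settings. Taken without subtracting the shift of all genes, the medians of the HOX, TCA cycle and glycolysis lists changed sign under at least 1 scaling. Relative to all genes they were −0.096, −0.012 and −0.048 in the main fit. PECAM1, KDM6B, TET3, IFI6, CEBPG, AURKA and RPS7 lost their calls without IDH2R140W library 3. The cause of the lost calls was not tested.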

Other observations

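Among tested genes with a mean of at least 5 TPM in one of the lines, 16 are listed at 0 in all 3 libraries of the other. VCX3A and SNORD110 are listed at 0 in IDH1R132H, and NCOR1P2, RP11-138I17.1 and TMEM189-UBE2V1 in IDH2R140W, and no fold is given for them. VCX3A stood at 8.93, 7.54 and 8.34 TPM in IDH2R140W. SNORD110 stood at 53.87, 69.44 and 0 there, so its groups overlap. CD40, a receptor of the TNF family at the end of the chromosome 20 window that holds MMP9, averaged 28.1 TPM in IDH1R132H and 6.04 in IDH2R140W (2.06).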
